A study of Mus musculus with 9 samples.

Results

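The genes described here mostly encode proteins that the liver secretes into plasma, read out in sorted mouse thymic epithelium. They comprise 24 named genes (Alb, Afp, Ttr, Rbp4, Ahsg, Apoa1, Apoa2, Apoa4, Apob, Apoc1, Apoc3, Apoh, Fga, Fgb, Fgg, Plg, Crp, Apcs, C3, Hp, Hpx, Ambp, Itih1 and Itih3) and every major urinary protein gene whose symbol is Mup followed by digits only (21 genes). They were listed by symbol, with earlier results of these data known, and the 45 genes make up a small share of the 38720 genes in the counts table.

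Foxn1 is the forkhead transcription factor needed to build a functional thymic epithelium, and nude mice lack it. Polyadenylated RNA was sequenced from CD45-, EpCAM+, MHCII+ cells, sorted as cortical epithelium (cTEC, Ly51+ and UEA1-) or medullary epithelium (mTEC, Ly51- and UEA1+). A transgenic set carried a Foxn1 BAC transgene on the nude background. It held 3 cTEC and 2 mTEC libraries from heterozygous carriers and 3 cTEC and 2 mTEC libraries from homozygous carriers. A deletion set held cTEC libraries from mice homozygous for both beta5t-rtTA and Foxn1fl/fl. Of these, 5 libraries came from mice heterozygous for the tetO-Cre transgene, in which doxycycline removes Foxn1 exons 7 and 8, and 5 control libraries from mice without tetO-Cre. Both arms received doxycycline and were taken at 72 h. The beta5t promoter drives rtTA in cTEC, so the deletion is aimed at the cortex. The labels do not state whether libraries came from separate mice or pools, so p-values measure the spread between libraries, which may be technical.

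Medullary epithelial cells transcribe many genes that otherwise belong to peripheral organs, and show the products to developing T cells so that self-reactive cells are removed or become regulatory. Aire, a nuclear regulator made by mature mTEC, and the zinc finger factor Fezf2 drive much of this promiscuous transcription. Plasma proteins are a classical set of such tissue-restricted antigens. In the liver itself they are switched on by hepatocyte nuclear factors, among them the nuclear receptor Hnf4a and the forkhead factors Foxa1, Foxa2 and Foxa3. The related nuclear receptor Hnf4g was read beside them.

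Promoters of 33 of the 45 genes were found in the RefSeq promoter table (build GRCm38.p6, 250 bases before to 50 after each start), and 6 of them are shown because they carry the contrasts that the results turn on. Alb and Afp are neighbours on chromosome 5, Apoa4 fell in heterozygous mice in both subsets, and the Mup genes lie side by side on chromosome 4. Capitals mark 2 short motifs: CAAAGTNCA, a core of the HNF4 site, searched on both strands, and the TATA box TATAAA, searched on the given strand. The letters of the HNF4 core were shortened after these windows had been read, so its shares are descriptions.
Alb, chr5:90460620-90460919, plus strand: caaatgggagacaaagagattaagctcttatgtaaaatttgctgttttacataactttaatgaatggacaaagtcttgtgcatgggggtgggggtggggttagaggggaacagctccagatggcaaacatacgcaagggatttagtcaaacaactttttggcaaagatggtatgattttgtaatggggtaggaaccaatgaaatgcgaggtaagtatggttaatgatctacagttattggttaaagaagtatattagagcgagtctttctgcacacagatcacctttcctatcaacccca
Afp, chr5:90490464-90490763, plus strand: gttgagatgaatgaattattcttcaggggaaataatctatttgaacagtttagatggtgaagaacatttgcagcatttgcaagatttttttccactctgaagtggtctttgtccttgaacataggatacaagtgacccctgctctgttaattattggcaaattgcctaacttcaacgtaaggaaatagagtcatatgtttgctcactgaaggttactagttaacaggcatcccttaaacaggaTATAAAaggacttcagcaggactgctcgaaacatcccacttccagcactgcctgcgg
Apoa4, chr9:46240594-46240893, plus strand: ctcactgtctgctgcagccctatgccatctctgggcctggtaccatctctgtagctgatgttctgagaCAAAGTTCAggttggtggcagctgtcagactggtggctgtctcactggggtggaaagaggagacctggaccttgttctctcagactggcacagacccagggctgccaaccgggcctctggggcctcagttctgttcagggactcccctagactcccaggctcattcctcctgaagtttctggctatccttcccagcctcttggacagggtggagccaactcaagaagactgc
Mup4, chr4:59960618-59960727, minus strand: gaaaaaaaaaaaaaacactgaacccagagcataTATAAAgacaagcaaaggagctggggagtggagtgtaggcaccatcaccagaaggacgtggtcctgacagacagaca
Mup6, chr4:60003421-60003530, plus strand: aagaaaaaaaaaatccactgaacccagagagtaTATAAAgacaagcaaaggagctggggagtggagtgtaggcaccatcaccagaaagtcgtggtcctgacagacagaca
Mup10, chr4:60582106-60582215, minus strand: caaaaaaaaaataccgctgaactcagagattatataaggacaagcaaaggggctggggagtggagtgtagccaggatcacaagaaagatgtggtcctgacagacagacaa
The HNF4 letters stood in Apoa4, which is 3.03% of the 33 genes, against 1.64% of 27025 genes with a promoter in the table. TATAAA stood in 9 of the 33 (27.3%), against 9.77% of all. The printed Alb and Mup10 stretches hold neither motif. No overlap between the motifs was found in the printed stretches, and a match or its absence says nothing here about binding. Over the whole windows, aligned without gaps, Mup4 and Mup6 were 73.8% identical, Mup4 and Mup10 53.9% and Mup6 and Mup10 53.6%. An inserted or lost base lowers such a value, so these and the following counts of pairs can understate likeness. The printed Mup4 and Mup6 stretches are more alike than their whole windows. Over all 91 pairs of Mup promoter windows, 10 pairs were at least 95% identical over 150 bases or more. Of these, 9 paired Mup7 with another gene over 163 to 217 overlapping bases, and the remaining pair was Mup15 and Mup19, over 294 bases. The windows hold only 50 bases after each start, so they do not measure how alike the transcripts are. Reads from near-identical Mup copies may have been split between copies or dropped by the authors' counting, so single Mup values are uncertain and the summed count is given first.

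Library totals ran from 20719630 to 22372633 counts. The summed level of 10 mTEC markers, in CPM (each count scaled to a common library total), was 7181 to 7846 in homozygous mTEC and 6391 to 6504 in heterozygous mTEC. In homozygous cTEC it was 195 to 217, in heterozygous cTEC 761 to 952, in control cTEC 529 to 1739 and in Foxn1-deleted cTEC 457 to 1781. The summed level of 10 cTEC markers was 19306 to 21564 CPM in homozygous cTEC and 3026 to 3547 in heterozygous cTEC. Foxn1 itself was 1299 to 1484 CPM in homozygous cTEC and 1144 to 1209 in heterozygous cTEC, but 307 and 329 CPM in homozygous mTEC against 488 and 502 in heterozygous mTEC. Its transcript count was thus higher in the mTEC labelled heterozygous (log2 difference 0.66, SE 0.08, edgeR adjusted p = 1.68e-05), opposite to the order of transgene copies. Foxn1 was 351 to 579 CPM in control and 361 to 538 CPM in deleted cTEC, and a whole-gene count does not show whether exons 7 and 8 were removed. The summed cTEC markers were 7723 to 26753 CPM in control and 3715 to 4243 CPM in deleted cTEC. Of these 10 markers edgeR called 7 lower and 0 higher after deletion (median log2 -2.19), where 1.69% of all genes were lower.

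In transgenic mice most of the tested plasma protein genes were higher in mTEC than in cTEC. Of the 45 genes, 43 and 44 had at least 1 count in the homozygous mTEC libraries, 36 and 33 in heterozygous mTEC, 17 to 22 in homozygous cTEC and 13 in each heterozygous cTEC library. Of the 45 genes, 32 passed the filter on low counts in the transgenic set (23 named and 9 Mup genes). Of these, 12 would not have passed without the homozygous mTEC libraries (Apoh, Fga, Fgb, Plg, Mup1, Mup4, Mup5, Mup7, Mup8, Mup10, Mup17 and Mup20). A gene that passes in this way has to be high there, so the counts of members describe the list and support nothing further. In homozygous transgenic mice all 32 tested members were higher in mTEC than in cTEC, where 43.2% of the 19222 genes tested were higher and 39.4% lower. Their median log2 difference was 6.91, or 6.08 with genes at 0 counts in cTEC set at a lower bound, against 0.04 over all tested genes, and 6.68 over the 20 that passed the filter outside homozygous mTEC. In heterozygous mice 26 members were higher in mTEC, 1 (Apoc1) was lower and 5 (Fgg, Plg, Mup1, Mup7 and Mup8) did not pass the test, where 40.4% of all genes were higher and 31.6% lower. Their median there was 4.89, or 3.28 with bounds.

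**Figure D1:**
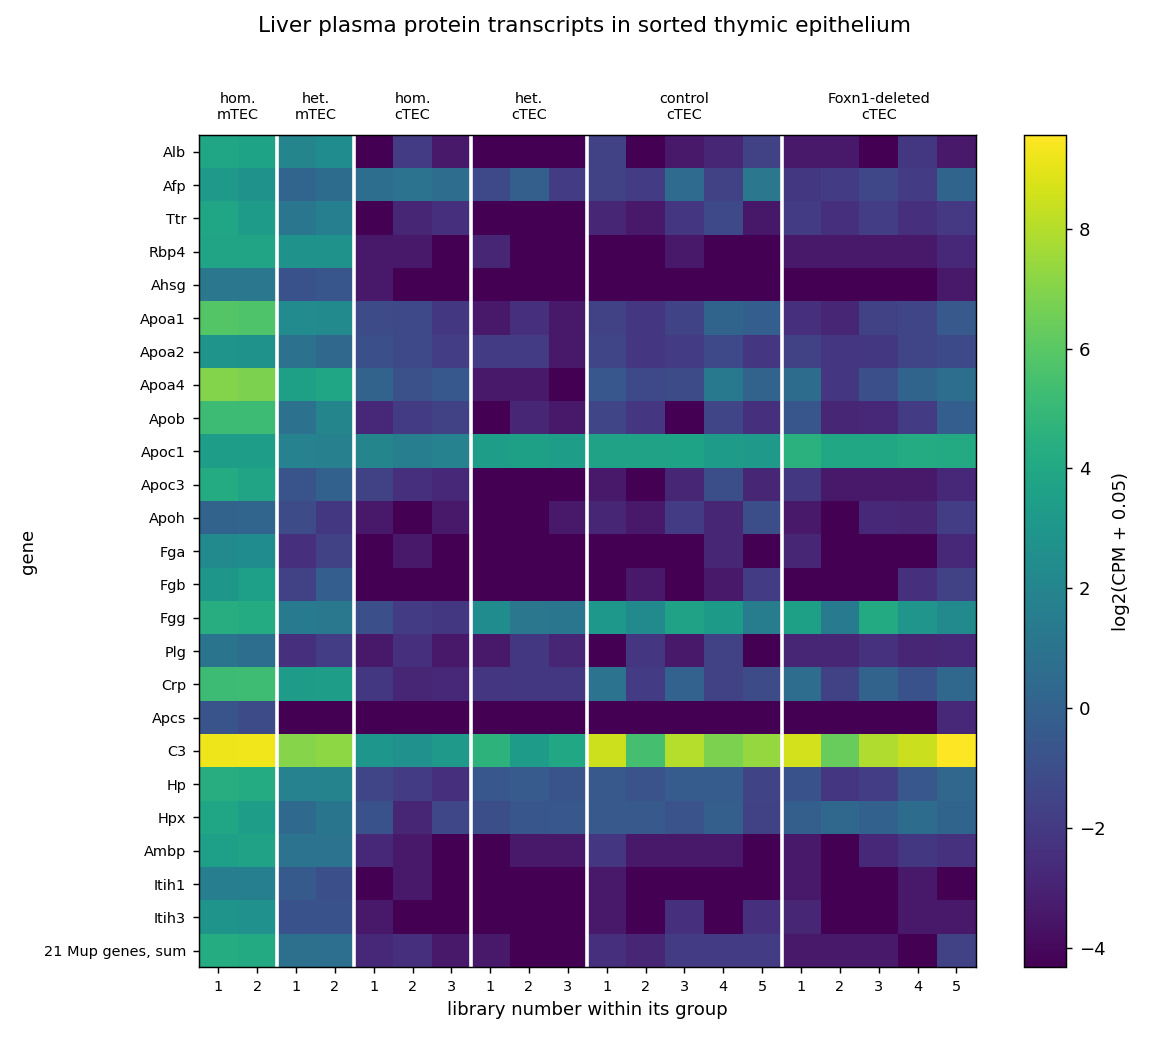
Level of the 24 named genes and the sum of the 21 Mup genes (rows) in each of the 20 libraries (columns, grouped and numbered within each group), coloured by log2(CPM + 0.05), where hom. and het. stand for homozygous and heterozygous transgenic. The homozygous mTEC libraries are the brightest columns for most rows, while Apoc1, Fgg and C3 also show clear signal in cTEC.

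All 5 carrier proteins were higher in mTEC than in cTEC within each genotype, and all but Afp were scarce in cTEC. Albumin (Alb), the main carrier of plasma, was 14.1 and 13 CPM in homozygous mTEC, 3.96 and 5.38 in heterozygous mTEC, 0 to 0.227 in homozygous cTEC and 0 in heterozygous cTEC. All mTEC libraries were thus above all cTEC libraries, and the heterozygous mTEC libraries were below the homozygous ones by 1.51 on the log2 scale (2.86-fold lower, SE 0.24, edgeR adjusted p = 0.000303). Alpha-fetoprotein (Afp), the fetal counterpart of albumin, was 9.21 and 7.08 CPM in homozygous and 1.08 and 1.46 in heterozygous mTEC. Afp was also present in homozygous cTEC, at 1.54, 1.90 and 1.52 CPM, above its values in heterozygous mTEC, and at 0.365, 0.881 and 0.229 CPM in heterozygous cTEC. It was the carrier protein that fell in heterozygous cTEC (log2 -1.88, SE 0.36, edgeR adjusted p = 0.000814), and it also fell in heterozygous mTEC (log2 -2.65, SE 0.31).

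Retinol-binding protein (Rbp4), which carries retinol in plasma, was 14.0 and 13.6 CPM in homozygous mTEC and 6.64 and 6.89 in heterozygous mTEC. Its log2 difference of -1.0 (SE 0.19, edgeR adjusted p = 0.000503) was the smallest of the 32. Transthyretin (Ttr), which binds thyroxine and Rbp4, was 15.0 and 10.3 against 2.12 and 3.11 CPM, and fell by 2.25 on the log2 scale. Fetuin A (Ahsg), an inhibitor of mineral deposition, was 2.22 CPM in both homozygous mTEC libraries and 0.518 and 0.614 in heterozygous ones. In cTEC, Rbp4, Ttr and Ahsg stayed at or below 0.143 CPM in every transgenic library.

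The apolipoproteins form the protein shell of lipoprotein particles. Levels are not corrected for gene length, so they are compared between libraries and not between genes. Apoa4, a component of intestinal and hepatic particles, was 128.7 and 111.3 CPM in homozygous mTEC, 12 and 14.7 in heterozygous mTEC, 1.03, 0.499 and 0.666 in homozygous cTEC, and 0.0457, 0.0463 and 0 in heterozygous cTEC. The 4 groups did not overlap. Apoa4 was 8.86-fold lower in heterozygous than in homozygous mTEC (log2 -3.15, SE 0.13, edgeR adjusted p = 5.51e-09). In cTEC it had 2 counts in all heterozygous libraries together against 47 in the homozygous ones, a ratio of 23.8 with an interval of 6.23 to 202.1 for counting error (exact binomial, 95%).

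Apoa1, the main protein of high-density lipoprotein, was 58.3 and 53.5 CPM in homozygous and 5.23 and 4.86 in heterozygous mTEC. It was 0.421, 0.363 and 0.190 CPM in homozygous and 0.0457, 0.139 and 0.0459 in heterozygous cTEC. It fell with the heterozygous genotype in mTEC (log2 -3.45, SE 0.14) and in cTEC (log2 -2.14, SE 0.52, edgeR adjusted p = 0.00461). Apoc3, an inhibitor of triglyceride clearance, was 18.3 and 13.9 against 0.565 and 0.944 CPM in mTEC, and fell by 4.38 on the log2 scale. Apoc3 also fell in cTEC, from 0.28, 0.136 and 0.0951 CPM to 0 counts, which is at least 3.71-fold lower (edgeR adjusted p = 0.01). These 3 genes are adjacent on chromosome 9. Apoa1 lies at 46228630 to 46230469, Apoc3 at 46233050 to 46235636 and Apoa4 at 46240844 to 46243458 (RefSeq, GRCm38.p6). They are 3 of the 4 members called lower in heterozygous cTEC. Those 4 are 12.5% of the 32 tested members, where 21.9% of all genes were lower.

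Apob, the large structural protein of chylomicrons and low-density lipoprotein, was 36.2 and 36.5 CPM in homozygous and 1.84 and 3.96 in heterozygous mTEC, a 12.3-fold difference (log2 -3.62, SE 0.25, edgeR adjusted p = 1.65e-07). Apoa2, the second protein of high-density lipoprotein, was 7.18 and 6.67 against 1.84 and 1.23 CPM. Apoh, which binds phospholipids, was 1.02 and 1.1 against 0.424 and 0.189 CPM, and its log2 difference of -1.75 (edgeR adjusted p = 0.00451) had a DESeq2 adjusted p of 0.103. Apoh passed the filter only through homozygous mTEC, so its test used the values that admitted it.

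Apoc1, a small apolipoprotein of triglyceride-rich particles that macrophages also make, was high in cTEC of one genotype. It was 10.7 and 10.8 CPM in homozygous mTEC, 3.53 and 3.30 in heterozygous mTEC, 3.93, 3.04 and 3.52 in homozygous cTEC, and 10.9, 11.7 and 10.5 in heterozygous cTEC. The order of the subsets was thus opposite in the 2 genotypes. Apoc1 was 2.60-fold higher in mTEC than in cTEC of homozygous mice (edgeR adjusted p = 3.71e-07) and 3.43-fold lower in heterozygous mice (edgeR adjusted p = 8.57e-08).

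The fibrinogen chains differed from each other in cTEC. Fga, Fgb and Fgg encode the alpha, beta and gamma chains of one clotting protein and lie in a row on chromosome 3, with Fgg at 83007724 to 83015056, Fga at 83026153 to 83033627 and Fgb at 83042246 to 83049863. Fga was 4.91 and 5.32 CPM in homozygous mTEC, 0.141 and 0.283 in heterozygous mTEC, and had 1 count in the transgenic cTEC libraries together. Fgb was 8.01 and 11.2 CPM in homozygous mTEC and 0.283 and 0.85 in heterozygous mTEC. It had 0 counts in transgenic cTEC, which makes it at least 207-fold higher in homozygous mTEC than in homozygous cTEC. Fga and Fgb fell 23.1-fold and 16.6-fold in heterozygous mTEC (edgeR adjusted p = 2.69e-06 and 2.38e-05). Both passed the filter only through homozygous mTEC, so these tests used the values that admitted the genes and are descriptions.

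Fgg was 20.1 and 18.9 CPM in homozygous and 2.73 and 2.27 in heterozygous mTEC. Unlike its neighbours it was present in every cTEC library, at 0.467, 0.227 and 0.190 CPM in homozygous and 5.35, 2.18 and 2.11 CPM in heterozygous cTEC. Fgg was 9.81-fold higher in heterozygous than in homozygous cTEC (log2 3.29, SE 0.48, edgeR adjusted p = 9.2e-05), with no overlap, and 7.67-fold lower in heterozygous than in homozygous mTEC. In heterozygous mice its mTEC and cTEC values overlapped (log2 -0.45, edgeR adjusted p = 0.274). Plasminogen (Plg), the precursor of the protease that dissolves fibrin, was 1.99 and 1.57 CPM in homozygous mTEC and 0.141 and 0.236 in heterozygous mTEC, and 0.0457 to 0.185 CPM in transgenic cTEC.

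C3 is the central complement component, on which all activation routes converge. C3 was 580.5 and 612.8 CPM in homozygous mTEC, 132.8 and 148.4 in heterozygous mTEC, 7.76, 6.44 and 9.18 in homozygous cTEC, and 25.3, 10.2 and 15.3 in heterozygous cTEC. The 4 groups did not overlap. C3 was 4.18-fold lower in heterozygous than in homozygous mTEC (log2 -2.06, SE 0.24, edgeR adjusted p = 1.2e-05) and 1.99-fold higher in heterozygous than in homozygous cTEC (log2 0.99, SE 0.26, edgeR adjusted p = 0.00704).

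The pentraxins recognise microbes and dying cells. C-reactive protein (Crp) was 36.5 and 38.0 CPM in homozygous mTEC, 10.2 and 11 in heterozygous mTEC and at most 0.187 in transgenic cTEC, a 3.44-fold difference by genotype in mTEC (edgeR adjusted p = 1.15e-07). Serum amyloid P (Apcs), the neighbour of Crp on chromosome 1, had 0.556 and 0.417 CPM in homozygous mTEC and 0 counts in the other 8 transgenic libraries. It was the named gene that did not pass the filter.

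Haptoglobin (Hp), which binds free haemoglobin, was 20.3 and 18.3 CPM in homozygous and 3.48 and 3.59 in heterozygous mTEC. In cTEC it was 0.327, 0.227 and 0.143 CPM in homozygous and 0.640, 0.742 and 0.551 in heterozygous libraries. Hp fell 5.36-fold in heterozygous mTEC (edgeR adjusted p = 1.48e-07) and rose 2.49-fold in heterozygous cTEC (log2 1.31, SE 0.34, edgeR adjusted p = 0.00685). Hemopexin (Hpx), which binds haem, was 14.4 and 10.5 against 1.27 and 2.03 CPM in mTEC, a 7.40-fold fall. Ambp, the precursor of the haem-binding alpha-1-microglobulin and of bikunin, was 11.5 and 12.9 against 1.88 and 1.89 CPM in mTEC, and at most 0.0935 CPM in transgenic cTEC.

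Bikunin joins heavy chains such as those of Itih1 and Itih3 to form inter-alpha-trypsin inhibitors, which stabilise hyaluronan. Itih1 was 2.96 and 3.10 CPM in homozygous and 0.706 and 0.472 in heterozygous mTEC. Itih3 was 7.18 and 6.43 against 0.518 and 0.519 CPM, a 12.8-fold fall (log2 -3.67, SE 0.29, edgeR adjusted p = 2.04e-06). Each had 1 count in the transgenic cTEC libraries together.

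The major urinary proteins are lipocalins, many of which the mouse liver secretes into blood and which carry pheromones in urine. The sums given here cover all 21 genes, whichever organ makes them. Their summed count was 413 and 386 in homozygous mTEC, 36 and 35 in heterozygous mTEC and at most 3 in any transgenic cTEC library. Per library, 19 and 20 of the 21 genes had a count in homozygous mTEC against 13 and 10 in heterozygous mTEC. Mup6 was 5.23 and 5.32 CPM in homozygous and 0.565 and 0.661 in heterozygous mTEC, and Mup4 was 4.77 and 3.66 against 0.283 in both. Mup20, whose product is a male attractant known as darcin, was 1.71 and 1.62 against 0.235 and 0.142 CPM. Mup5, Mup8 and Mup17 were 0.833 to 1.30 CPM in homozygous and at most 0.142 in heterozygous mTEC. The other Mup genes stayed at or below 0.787 CPM in every library, and Mup11 had 0 counts in all 20 libraries. Xist and the Y-linked Ddx3y were both detected in every transgenic library. In mTEC Xist was 326.1 and 588.7 CPM in homozygous and 481.1 and 581.3 in heterozygous libraries, and Ddx3y 44.0 and 27.3 against 39.1 and 42.4 CPM. The part of the sexes in the Mup difference was not tested.

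In mTEC, every tested member was lower in the libraries labelled heterozygous than in those labelled homozygous, 32 of 32 including the 20 that passed the filter outside homozygous mTEC, where 30.8% of all genes were lower and 28.9% higher. Over those 20 the median log2 difference was -2.54 and the values ranged from -4.38 (Apoc3) to -1.0 (Rbp4), against a median of 0.01 over all genes tested. Over all 32 the median was -3.00, a value that the 12 genes selected by their level in homozygous mTEC help to set. The groups of 2 libraries did not overlap for any tested member. The share of all genes without overlap is not given, and those 12 genes were selected, so this describes the list only. The 2 homozygous mTEC libraries also held more transcripts of blood cell markers. All 10 tested macrophage and dendritic cell markers were higher in homozygous mTEC than in homozygous cTEC, and 9 of 10 were lower in heterozygous than in homozygous mTEC. Their summed level, over 11 of 12 listed genes, was 674 and 573 CPM in homozygous mTEC, 113 and 110 in heterozygous mTEC and 4.2 to 8.6 in transgenic cTEC. Lyz2 alone made up 552.4 and 462.1 CPM of the homozygous mTEC sums. The 10 neutrophil markers summed to 272 and 250 CPM in homozygous and 57.9 and 77.8 in heterozygous mTEC, with Elane at 0 and 0.0926 CPM and Mpo at 48.3 and 49.0 CPM in homozygous mTEC. The sort was on CD45- cells, yet Ptprc, which encodes CD45, was 20.6 and 18.8 CPM in homozygous and 6.92 and 6.94 in heterozygous mTEC. All 12 thymocyte and T cell markers were also lower in heterozygous mTEC (median log2 -1.34), with sums of 102.0 and 81.1 against 42.5 and 41.3 CPM. The part of these cells in the difference was not tested. In such bulk libraries fewer cells that carry a transcript and less transcript per cell cannot be told apart.

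In cTEC the members moved in both directions. Of the 32, 4 were higher in heterozygous than in homozygous cTEC (Apoc1, Fgg, C3 and Hp). Another 4 were lower (Afp, Apoa1, Apoa4 and Apoc3). That is 12.5% in each direction, where 20.9% of all genes tested were higher and 21.9% lower. They are also 4 and 4 of the 20 members that passed the filter outside homozygous mTEC. The same holds for the 16 members with more than 3 counts in a cTEC genotype, so scarce members lower the share of the 32. Apoc1 rose 2.88-fold (log2 1.53, SE 0.12, edgeR adjusted p = 3.53e-07). DESeq2 called 7 lower, and a fit of the cTEC libraries alone called 2, where fewer members passed the filter. Of the other 24 members, 16 had at most 3 counts in each genotype, too few for a reading. The summed mTEC markers were also higher in heterozygous cTEC (761 to 952 CPM) than in homozygous cTEC (195 to 217 CPM). Fibroblast markers summed to 357 to 378 against 116 to 128 CPM, and macrophage and dendritic cell markers to 7.3 to 8.6 against 4.2 to 7.1 CPM. Thymocyte and T cell markers went the other way, all 12 lower in heterozygous cTEC (median log2 -3.18), with sums of 10.9 to 18.7 against 64.5 to 103.7 CPM. The part of such cells in the cTEC differences was not tested.

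**Figure D2:**
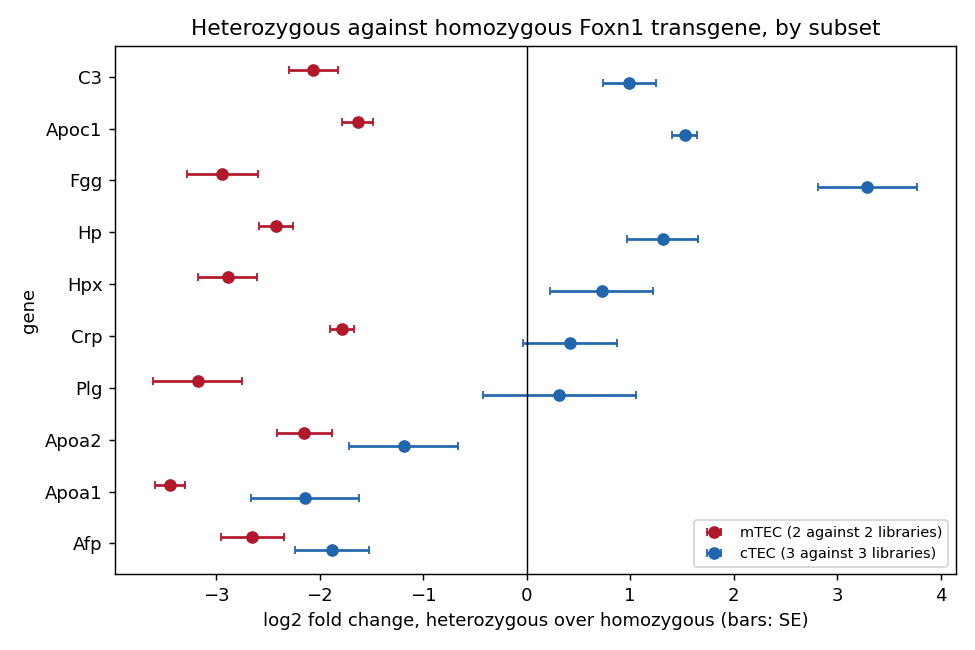
Log2 fold change of heterozygous over homozygous transgenic libraries (x axis, bars are SE) for the 10 members with more than 3 counts in both cTEC groups (y axis), in mTEC (red, 2 against 2 libraries) and in cTEC (blue, 3 against 3). All 10 lie below 0 in mTEC, while in cTEC the called C3, Apoc1, Fgg and Hp lie between 0.99 and 3.29 and the called Afp and Apoa1 at -1.88 and -2.14.

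The 2 subsets were compared directly by an interaction, the log2 difference by genotype in mTEC minus that in cTEC. Of the 32 tested members 7 (21.9%) had a lower value in mTEC and 0 a higher one, where 17.2% of all genes were lower and 25.2% higher. Of the 20 that passed the filter outside homozygous mTEC, 6 were lower and 0 higher. The 32 include members with 3 counts or fewer in a cTEC group, for which the interaction cannot be read. Their share is therefore not weighed against that of all genes. The 7, all among the 10 members with more than 3 counts in both cTEC groups, were Apoc1 (-3.16, SE 0.19), Fgg (-6.23, SE 0.58), Plg (-3.49, SE 0.92), Crp (-2.20, SE 0.48), C3 (-3.06, SE 0.35), Hp (-3.74, SE 0.37) and Hpx (-3.61, SE 0.58). Their edgeR adjusted p ran from 1.07e-07 for Apoc1 to 0.00806 for Plg, and Plg had an adjusted p of 0.0637 without heterozygous cTEC library 2. Plg passed the filter only through homozygous mTEC, so its test used the values that admitted it. The interaction did not pass for Afp (-0.77, SE 0.51), Apoa1 (-1.31, SE 0.72) or Apoa2 (-0.96, SE 0.65). For Afp and Apoa1 the fall was called in each subset, and with such errors these data leave room for a difference between subsets larger than the values given.

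The regulators of promiscuous and hepatic transcription, and the related receptor Hnf4g, did not all follow the plasma protein genes in mTEC. Aire was 1029 and 1188 CPM in homozygous and 998.6 and 1019 in heterozygous mTEC, a log2 difference of -0.11 (SE 0.12, edgeR adjusted p = 0.446). Fezf2 was 304.7 and 294.6 against 216.0 and 221.8 CPM and fell by 0.43 on the log2 scale (SE 0.07, edgeR adjusted p = 0.000184). Hnf4g fell from 31.3 and 31.7 to 7.39 and 7.74 CPM (log2 -2.03, SE 0.12), and Hnf4a from 5.51 and 6.02 to 0.801 and 0.850 CPM (log2 -2.77, SE 0.25, edgeR adjusted p = 5.56e-06). Foxa1 fell from 41.7 and 36.2 to 24.4 and 27.2 CPM (log2 -0.57, SE 0.16). Foxa2 (log2 0.08) and Foxa3 (log2 -0.26) did not pass the test.

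In cTEC, Hnf4g was 3.83, 3.72 and 4.47 CPM in homozygous and 7.99, 6.86 and 7.89 in heterozygous libraries (log2 0.79, SE 0.12, edgeR adjusted p = 0.00011). Foxa1 rose from 1.92, 1.31 and 1.95 to 13.5, 8.90 and 9.77 CPM (log2 2.50, SE 0.20). Hnf4a, at 0.408 to 0.654 CPM in homozygous cTEC, fell to 0 counts. Hnf4g and Foxa1 thus differed by genotype in opposite directions in the 2 subsets, as Fgg, Apoc1, C3 and Hp did, with interaction values of -2.82 (SE 0.17) and -3.07 (SE 0.26).

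**Figure D3:**
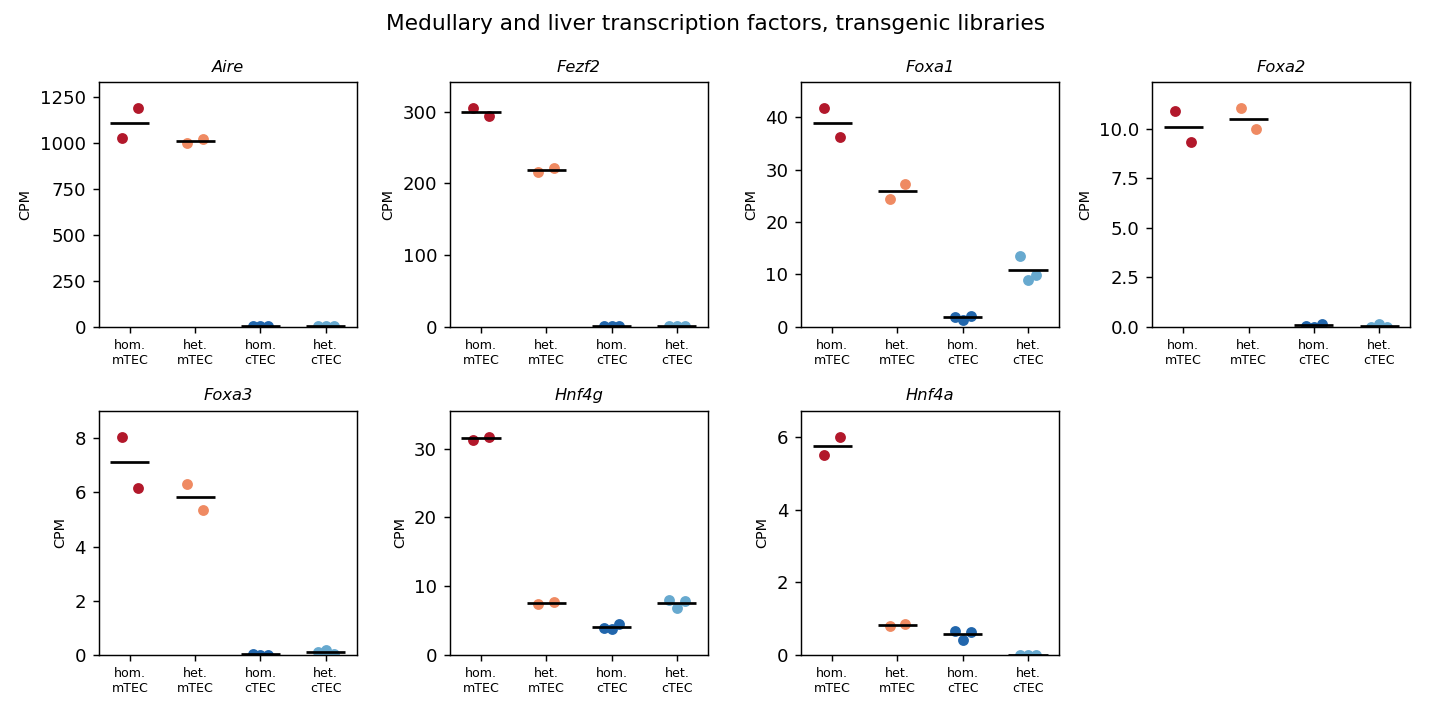
Level in CPM (y axis, a separate linear scale from 0 for each gene) of 7 transcription factors in the 10 transgenic libraries, where each point is a library and each line a group mean. Aire and Fezf2 are near 0 in cTEC, and Hnf4g and Hnf4a separate the homozygous from the heterozygous mTEC libraries.

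Other genes of the liver programme were read from lists drawn up beside the members. Of 38 further liver-secreted plasma protein genes tested, 37 were higher in mTEC than in cTEC of homozygous mice and 30 of heterozygous mice. Of all genes tested, 43.2% and 40.4% were higher. Of the 38, 13 passed the filter only through homozygous mTEC and so had to be high there, and the counts describe the list only. Lcat, which esterifies cholesterol in plasma, was lower in mTEC in both genotypes (log2 -0.64 and -1.33). Of the same 38 genes, 32 (84.2%) were lower and 0 higher in heterozygous than in homozygous mTEC, where 30.8% of all genes were lower and 28.9% higher. Of the 25 that passed the filter outside homozygous mTEC, 22 were lower. Among them were serum amyloid Saa1 (82.9 to 4.22 CPM, log2 -4.27, SE 0.18) and the thyroxine-binding globulin Serpina7 (80.3 to 10.4 CPM, log2 -2.93, SE 0.13). Of 25 coagulation and complement genes 21 were lower (15 of the 19 that passed the filter outside homozygous mTEC), such as the complement inhibitor C4bp (log2 -3.42) and clotting factor F10 (log2 -4.17), and 2 were higher, C4b (log2 1.65) and Masp1 (log2 1.17). Of 26 hepatocyte metabolic enzymes 24 were lower (16 of 18), among them Hal of histidine breakdown (log2 -1.96). Of 15 enterocyte genes 12 were lower (9 of 12), such as Mttp, which loads lipid onto Apob (71.8 to 12.6 CPM, log2 -2.49), and Vil1 of the brush border (log2 -2.33). Of 21 hepatic and gut-liver transcription factors 12 were lower (8 of 17), with Gata4 at log2 -2.79, and 2 higher, with Prox1 at log2 0.38. Of 16 Aire partners and medullary regulators, all of which passed outside homozygous mTEC, 4 (25%) were lower, with Sirt1 (log2 -1.47) and Cd80 (log2 -1.24), and 7 (43.8%) higher, with Hipk2 (log2 1.29) and Top2a (log2 0.99).

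In cTEC the shares of further plasma protein genes and metabolic enzymes called were near or below those of all genes, of which 20.9% were higher and 21.9% lower in heterozygous cTEC. In these lists 13 of the 38 and 8 of the 26 genes passed the filter only through homozygous mTEC, so low counts in cTEC may lower the shares. Of the 38 further plasma protein genes 6 (15.8%) were higher, such as Apoe of remnant lipoproteins (126.3 to 357.0 CPM, log2 1.37, SE 0.08) and Itih2 (log2 1.71), and 3 (7.89%) were lower, with Orm1 (log2 -1.47) and Gc (log2 -3.06). Among metabolic enzymes 4 of 26 (15.4%) were higher, with Adh1 (log2 4.13) and Arg1 (log2 2.88), and 6 (23.1%) lower, with Aldh1l1 of folate metabolism (199.0 to 27.0 CPM, log2 -3.01) and Cps1 of the urea cycle (8.85 to 1.16 CPM, log2 -3.06). Complement C4b rose (7.76 to 44.5 CPM, log2 2.39). The interaction passed for 13 of the 38 further plasma protein genes (34.2%), all lower in mTEC, where 17.2% of all genes were lower and 25.2% higher. The 38 include genes that passed the filter only through homozygous mTEC and had to be high there. Their share is therefore not weighed against that of all genes.

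After acute deletion of Foxn1, edgeR called a change in none of the tested plasma protein genes, and DESeq2 called Apoc1 higher. In the deletion set 7 of the 45 genes passed the filter (Apoa4, Apoc1, Fgg, Crp, C3, Hp and Hpx), and 0 were called by edgeR in either direction (2, Apoc1 and Hpx, had an unadjusted p under 0.05), where 0.282% of 15224 genes were higher and 1.69% lower. Apoc1 was 12.7, 12.8, 13.3, 10.1 and 8.67 CPM in control libraries 1 to 5 and 23.7, 15.6, 16.0, 18.4 and 17.8 CPM in deleted libraries 1 to 5. Every deleted library was above every control library, and the log2 difference was 0.65 (SE 0.16), with an edgeR adjusted p of 0.0693 and a DESeq2 adjusted p of 0.00487. In the same order Hpx was 0.685, 0.684, 0.541, 0.861 and 0.268 CPM in control and 0.877, 1.19, 0.957, 1.47 and 1.06 CPM in deleted cTEC, also without overlap (log2 0.85, SE 0.28, edgeR adjusted p = 0.148).

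C3 varied widely within both arms. In control libraries 1 to 5 it was 364.5, 43.6, 254.7, 114.6 and 163.5 CPM, and in deleted libraries 1 to 5 it was 394.9, 82.1, 238.3, 346.7 and 755.3 CPM. The arms overlapped (log2 0.91, SE 0.60, edgeR adjusted p = 0.431). These levels are above the 6.44 to 25.3 CPM of transgenic cTEC, and the highest are above the 132.8 and 148.4 CPM of heterozygous mTEC, a comparison between mouse lines that was not tested. The summed mTEC markers in the same order were 1739, 529, 1161, 670 and 1049 CPM in control libraries and 1692, 457, 1487, 1011 and 1781 CPM in deleted libraries. In both arms library 2 was the lowest in C3 and in mTEC markers, and the part of medullary cells in the spread was not tested. Macrophage and dendritic cell markers summed to 9.8 to 44.6 CPM in control and 7.9 to 59.2 in deleted cTEC, and fibroblast markers to 496 to 985 and 884 to 1577 CPM.

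Fgg was 8.50, 4.92, 12.7, 9.43 and 2.77 CPM in control and 11.8, 2.46, 17.6, 7.53 and 5.02 CPM in deleted cTEC (log2 0.21, SE 0.52). Its chromosomal neighbours Fga and Fgb stayed at or below 0.29 CPM in all 10 of these libraries. Crp (log2 0.24, SE 0.63), Hp (log2 -0.20, SE 0.46) and Apoa4 (log2 -0.04, SE 0.62) overlapped between the arms. The summed Mup count was at most 6 in any library of the set. Of the related lists 1 gene was called, Cps1, which fell from 4.82 to 0.890 CPM (log2 -2.47, SE 0.46, edgeR adjusted p = 0.0267). Cps1 was also among the metabolic enzymes that fell in heterozygous cTEC.

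**Figure D4:**
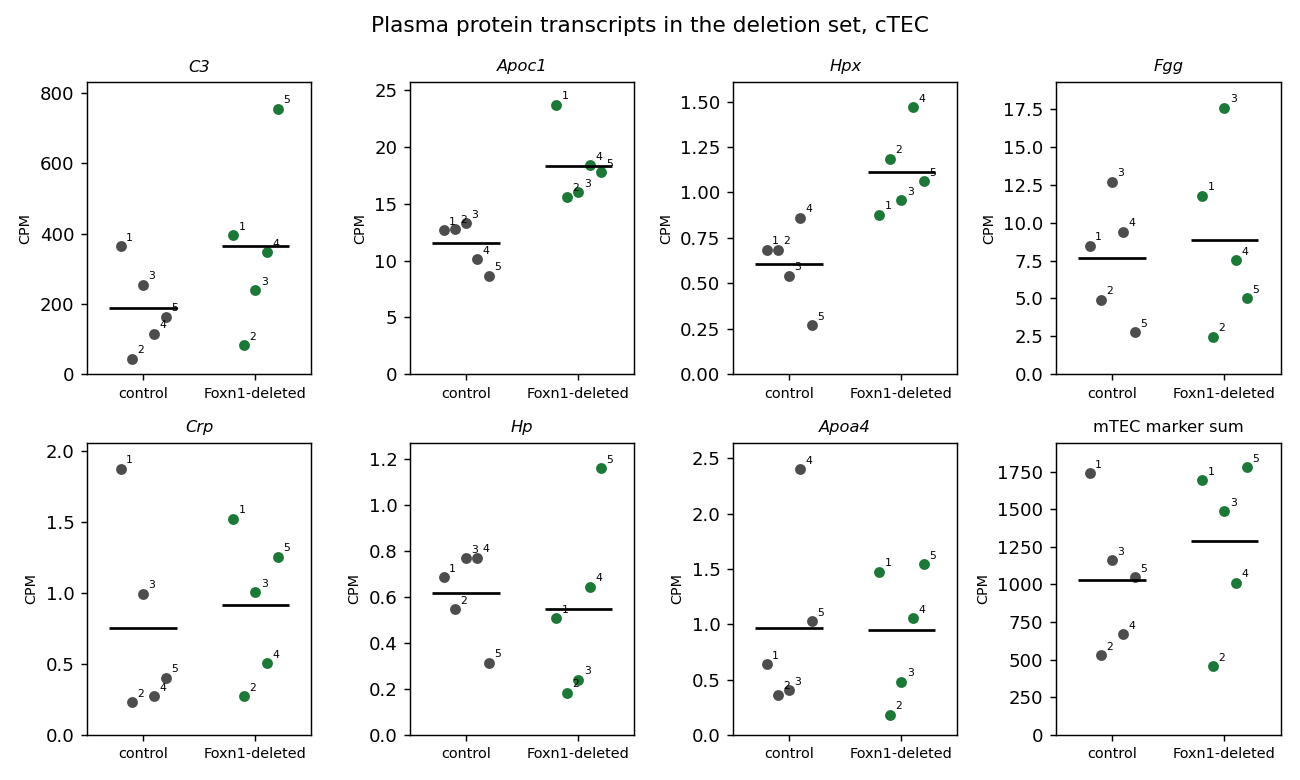
Level in CPM (y axis, linear from 0, a separate scale for each panel) of the 7 tested members and of the sum of 10 mTEC markers in control and Foxn1-deleted cTEC, where each point is a library with its number and each line the mean of 5. The arms separate for Apoc1 and Hpx and overlap in the other panels.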

How the data were processed

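RNA-seq counts per gene were used as the authors deposited them, in whole numbers for 38720 genes and 20 libraries. The submitters' processing notes name TopHat2 2.0.10, Bowtie2 2.2.3, Trimmomatic 0.32 and featureCounts and the builds mm10 and GRCm38, without roles. For the annotation, the strand setting and multi-mapped reads, the choices made were not given in the sources used here. Chromatin files were not used here. CPM scales each count by the library's total. Tests used edgeR 4.0.16 in R 4.3.3 (quasi-likelihood, 2-sided, TMM factors, filterByExpr with minimum count 10 and minimum total 15, prior count 0.125, Benjamini-Hochberg adjustment over all genes tested, threshold 0.05). The transgenic libraries shared a fit of 4 groups, and the deletion set had its own. DESeq2 1.42.0 was an alternative. SE is the fold change over the root of the F statistic. Bounds use 3 counts over a group, and intervals cover counting error only. Members and lists were chosen with earlier results of these data known. Members that passed a test with at least 1 CPM in some group are given by library. From each list up to 2 genes of smallest adjusted p per direction are named. Library numbers were not taken as pairs. The code was tested on simulated data. Some genes of the related lists are counted there but not reported by name.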

Additional observations from a re-analysis of the deposited data

Results flagged for a closer look

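For 7 genes the difference between heterozygous and homozygous mice itself differed between mTEC and cTEC by edgeR's interaction test (log2 difference in mTEC minus that in cTEC). The values were -3.16 for Apoc1 (adjusted p = 1.07e-07), -6.23 for Fgg (adjusted p = 3.2e-06), -3.49 for Plg (adjusted p = 0.00806), -2.20 for Crp (adjusted p = 0.00337), -3.06 for C3 (adjusted p = 1.68e-05), -3.74 for Hp (adjusted p = 5.57e-06) and -3.61 for Hpx (adjusted p = 0.000264). For Plg, Crp and Hpx the cTEC difference alone did not pass the test. Plg passed the filter only through homozygous mTEC, so its interaction is a description. In the 5 control and 5 deleted libraries, no tested member had a sample far from the others by Dixon's criterion in 14 tests.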

How the results depend on the processing

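Of the members' calls in the transgenic set, those between mTEC and cTEC of homozygous mice held under every alternative run, and the others changed as follows. In the interaction, all genes higher numbered 3106 without normalization factors and 3200 by DESeq2. In cTEC, members lower in heterozygous mice numbered 2 with only these groups in the fit and 7 by DESeq2, which added Alb, Ttr and Apob. In mTEC, all genes higher in heterozygous mice numbered 3421 by DESeq2, by which Apoh (adjusted p = 0.103) and Mup10 (adjusted p = 0.232) were no longer called lower. In heterozygous mice DESeq2 no longer called Mup5, Mup10 and Mup17 higher in mTEC, and Mup5 and Mup17 also lost the call without the filter and with the block. The replicate block by library number, whose pairing the labels do not give, gave 1 member higher (Apoc1, adjusted p = 0.0352) and 398 genes higher and 822 lower after deletion, and turned Apoa4 to 0.0071. Same-numbered control and deleted libraries correlated at 0.0853 to 0.754 in their deviations from the group means, and 4 of the 5 control libraries correlated best with the deleted library of their own number, a hint from the data and not from the design. In the transgenic set no such correlation was above 0.0582. DESeq2 gave 1 member higher (Apoc1), 303 genes higher and 776 lower after deletion. Leaving out 1 library at a time gave 0 to 205 genes higher and 51 to 630 lower after deletion, with the highest counts without control library 2 and 0 higher without deleted library 1, 4 or 5. The log2 difference then ran from -0.27 to 0.59 for Apoa4, -0.21 to 0.48 for Fgg, -0.032 to 0.91 for Crp and -0.65 to 0.0098 for Hp after deletion, from -0.67 to 0.15 for Fgg between subsets of heterozygous mice, and from -0.28 to 0.98 for Plg by genotype in cTEC. Without heterozygous mTEC library 2, Afp (adjusted p = 0.114), Hpx (adjusted p = 0.0792) and Mup17 (adjusted p = 0.169) were no longer called higher in mTEC of heterozygous mice, nor Apoh lower by genotype in mTEC (adjusted p = 0.0504). Mup5 lost that subset call without heterozygous mTEC library 1, Mup17 also without each heterozygous cTEC library in turn, and Alb gained a call by genotype in cTEC without homozygous cTEC library 1. The cause of these changes was not tested. Depth limits readings in cTEC, where most members had 3 counts or fewer per group.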
